A study of Sus scrofa with 4 samples.

Results

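The genes described here are the interferon regulatory factors IRF1, IRF2, IRF3, IRF7, IRF8 and IRF9 and the signal transducers and activators of transcription STAT2, STAT5A and STAT6, measured in a pig fat cell line. Members were the probes whose gene name on the array equals 1 of these 9 symbols. This gave 16 probes for 7 genes. IRF9 was added through its RefSeq transcript accession, because the array lists it under the older name LOC780415, so that 8 genes with 17 probes were followed among 34853 gene names. No probe carried the name or a RefSeq accession of IRF8, which is not analysed here. The study asked how intramuscular fat cells respond to serotonin and to the cytokine tumour necrosis factor alpha (TNF-α). It used porcine intramuscular preadipocytes (PIP), a line from the marbled back muscle of 1 female Duroc pig, at passages 26 to 35. All 4 groups therefore share 1 donor and 1 genotype, whose age is not given in the sources used here. PIP were left undifferentiated. Porcine mature adipocytes (pMA) came from PIP kept 4 days past confluence and then 4 days in medium with insulin (50 ng/ml), dexamethasone (0.25 μM), octanoate (2 mM) and oleate (200 μM). The pMA were unstimulated, given serotonin for 12 h (100 μM in the methods, 100 μM/ml in the labels) or given TNF-α for 12 h (2.5 µg/ml). Each group was 1 array with 200 ng of RNA, which the methods describe as pooled within the group, and all 4 arrays lay on 1 slide. No test across samples was possible, and no difference below has a replicate check.

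Interferon regulatory factors and STATs are the transcription factors that end the interferon and cytokine pathways. IRF3 and IRF7 are activated by kinases downstream of sensors of foreign nucleic acid and switch on interferon genes. Interferon bound to its receptor activates Janus kinases, which phosphorylate STAT2, and STAT2 joins IRF9 in ISGF3, the complex that switches on antiviral genes. IRF1 is an inducible activator of antigen presentation and chemokine genes, and IRF2 binds the same sites and often opposes it. STAT5A acts downstream of growth hormone, prolactin and other cytokines, and STAT6 downstream of interleukin 4 and interleukin 13. In fat tissue STAT5A is known as a promoter of adipocyte differentiation.

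The probes are 60 bases long. The sequences of 6 of them are given as the array design in the deposited files has them, 5′ to 3′ and in lower case throughout, since no stretch was singled out. For IRF2, STAT5A and STAT6 the probe shown is the dimmer of a pair, nearer to the 5′ end of the transcript, whose ratio between pMA and PIP departed from that of the brighter probe. For IRF3, IRF7 and STAT2 it is the probe nearest the 5′ end, given for comparison.
IRF2: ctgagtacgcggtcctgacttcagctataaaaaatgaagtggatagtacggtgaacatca
STAT5A: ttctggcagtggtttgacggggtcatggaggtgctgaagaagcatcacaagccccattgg
STAT6: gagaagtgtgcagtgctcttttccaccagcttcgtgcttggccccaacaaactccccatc
IRF3: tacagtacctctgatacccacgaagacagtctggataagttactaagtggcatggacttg
IRF7: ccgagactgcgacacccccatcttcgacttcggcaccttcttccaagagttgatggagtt
STAT2: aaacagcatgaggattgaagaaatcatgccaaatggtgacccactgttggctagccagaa
These probes begin at base 693 (IRF2), 1761 (STAT5A), 1291 (STAT6), 387 (IRF3), 1353 (IRF7) and 2537 (STAT2) of the transcripts used for the design. The brighter probes of IRF2, STAT5A and STAT6 begin at bases 1710, 2458 and 2633. The GC content was 43.3% and 45.0% for the IRF2 pair, 55.0% for both STAT5A probes and 55.0% for both STAT6 probes. No genome build is named in the files, so no coordinates are given. In the RefSeq gene table (assembly Sscrofa11.1) STAT5A lies between STAT3 and STAT5B and overlaps STAT5B, a close paralogue with which signal could be shared. IRF2 overlaps LOC106506214, STAT2 overlaps IL23A, STAT6 overlaps NAB2 and IRF1 overlaps SLC22A5 in that table.

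Levels are given as relative signal, the processed intensity of a probe divided by the 75th percentile of its array. Where a gene had several probes, the brightest represents it and the others are given beside it. Levels of different probes cannot be compared, because each probe binds with its own efficiency. All 17 member probes were well above background on all 4 arrays, so that no member value is a bound. Repeated spots of a probe on the same array differed by a standard deviation (SD) of 0.11 to 0.18 on the log2 scale. That gives a technical SD of a log2 ratio of 0.25 for pMA against PIP, 0.21 for serotonin against pMA, 0.26 for TNF-α against pMA and 0.22 for TNF-α against serotonin. This error covers spots only, not cultures or pools.

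The array-wide facts that touch these values are few. The share of probes well above background was 56.5% on the PIP array, 56.6% on the pMA array, 61.0% after serotonin and 66.0% after TNF-α. Of 9 adipocyte markers, 6 were above background in PIP and 6 in pMA. Their summed relative signal was 1.94 in PIP, 5.49 in pMA, 18.0 after serotonin and 11.5 after TNF-α, a sum over probes of unequal efficiency. Most of the serotonin sum was LPL and CD36, with log2 ratios to pMA of 2.41 and 1.47, while FABP4 had -2.77. In pMA against PIP the log2 ratio was 5.17 for CD36, 3.88 for CIDEC, 1.07 for PPARG, 0.38 for LPL and 0.31 for LEP. For FABP4, not above background in PIP, it was at least 3.08. The adipocyte genes PLIN1, ADIPOQ and CEBPA were not above background in pMA, and of these only ADIPOQ was in PIP. Of 5 leukocyte markers on the array, CD163 was not above background on any array, and the summed signal of the 5 was 1.44, 1.99, 1.96 and 3.05 in the same order. Of 6 skeletal muscle markers MYOD1 and MYF5 were not above background on any array, while the sum, nearly all from ACTA1, was 642, 657, 175 and 610. Of 5 endothelial markers CDH5 and TEK were not above background on any array, and the sum was 1.59, 1.16, 0.483 and 1.16. The preadipocyte and fibroblast sum was 445, 527, 402 and 448. The part of these shifts in the IRF and STAT values was not tested, and fewer cells of a type cannot be told apart from less RNA per cell.

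**Figure D1:**
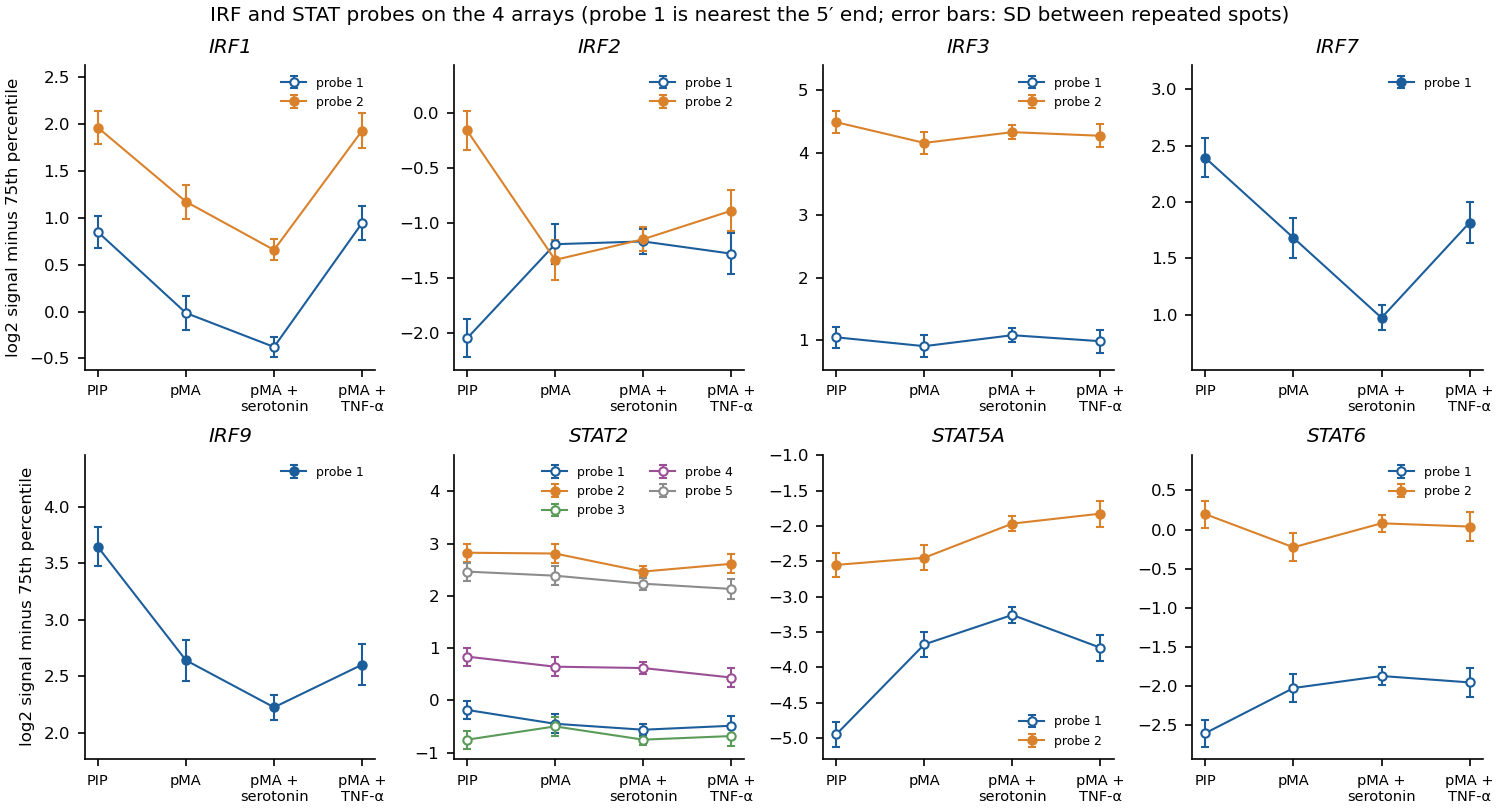
Log2 signal minus the 75th percentile of the array (vertical) for every IRF and STAT probe on the PIP, pMA, pMA with serotonin and pMA with TNF-α arrays (horizontal); filled points mark the brightest probe and bars are the SD between repeated spots of the array. IRF1, IRF7 and IRF9 have their lowest value after serotonin, and the probes of IRF2, STAT5A and STAT6 disagree mainly between PIP and pMA.

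IRF1 was lower in pMA than in PIP, lowest after serotonin, and within the spot error of PIP after TNF-α. The relative signal of its brightest probe was 3.89 in PIP, 2.25 in pMA, 1.58 after serotonin and 3.80 after TNF-α. The other probe gave 1.80, 0.989, 0.770 and 1.92. The order was thus shared by both probes, apart from PIP and TNF-α, which differed by less than the spot SD and swapped places. The log2 ratio was -0.79 for pMA against PIP, -0.51 for serotonin against pMA and 0.76 for TNF-α against pMA. Over both probes it ran from -0.86 to -0.79, from -0.51 to -0.36 and from 0.76 to 0.96. Between the stimulated cultures IRF1 was 2.41-fold higher after TNF-α than after serotonin by the brightest probe and 2.50-fold higher by the other.

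IRF7, the inducible activator of interferon alpha genes, had 1 probe. Its relative signal was 5.24 in PIP, 3.21 in pMA, 1.96 after serotonin and 3.52 after TNF-α. Serotonin gave the lowest value, with a log2 ratio to pMA of -0.71, and pMA stood to PIP at -0.71 as well. The pMA and TNF-α values differed by 0.14, less than the technical SD. TNF-α stood 1.80-fold above serotonin.

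IRF9, the DNA-binding subunit of ISGF3, also had 1 probe. Its relative signal was 12.5 in PIP, 6.24 in pMA, 4.67 after serotonin and 6.07 after TNF-α. PIP was the highest of the 4, at 2.01 times the pMA value (log2 ratio -1.01 for pMA against PIP). The serotonin value lay 0.42 below pMA on the log2 scale, 2 technical SDs of that comparison being 0.42. TNF-α and pMA differed by -0.04, within the spot error.

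STAT2, the ISGF3 subunit that carries the activation domain, varied little. Its brightest probe had a relative signal of 7.09 in PIP, 7.02 in pMA, 5.52 after serotonin and 6.12 after TNF-α. Its 5 probes gave log2 ratios between -0.27 and 0.25 for pMA against PIP, of which 4 were below 0. All 5 were below 0 after serotonin, from -0.35 to -0.03, and after TNF-α, from -0.25 to -0.04. None of these ratios passed 2 technical SDs.

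IRF3, the constitutively present factor below the nucleic acid sensors, was the member of narrowest range. Its relative signal was 22.5 in PIP, 17.8 in pMA, 20.1 after serotonin and 19.3 after TNF-α, and 2.06, 1.87, 2.11 and 1.97 by its other probe. All ratios of both probes lay between -0.33 and 0.18 and none passed 2 technical SDs. The 4 levels therefore could not be ordered beyond the spot error, the furthest apart being PIP and pMA, by 0.33.

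IRF2 gave opposite readings from its probes. The brightest, nearer the 3′ end, had a relative signal of 0.895 in PIP, 0.396 in pMA, 0.451 after serotonin and 0.540 after TNF-α. The other had 0.242, 0.437, 0.445 and 0.412. The log2 ratio for pMA against PIP was therefore -1.17 by the former and 0.85 by the latter, while the 3 differentiated cultures differed by less than 2 technical SDs on either probe. No direction can be given for IRF2 between PIP and pMA.

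STAT5A was dim on this array. The relative signal was 0.171 in PIP, 0.183 in pMA, 0.256 after serotonin and 0.282 after TNF-α by the brighter probe, and 0.0323, 0.0782, 0.104 and 0.0757 by the dimmer. For pMA against PIP the brighter probe gave 0.10 and the dimmer 1.27, the latter the only member ratio at least 2-fold higher in pMA. The PIP signal of the dimmer probe (0.0323) lay close to the faintest one well above background on that array, 0.0286. Both probes were higher after serotonin than in pMA, by 0.48 and 0.42. After TNF-α they parted, at 0.62 and -0.05.

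STAT6 had a relative signal of 1.15 in PIP, 0.855 in pMA, 1.06 after serotonin and 1.03 after TNF-α. Its dimmer probe had 0.165, 0.246, 0.274 and 0.259. The log2 ratio for pMA against PIP was -0.42 by the brighter and 0.58 by the dimmer probe. Against pMA the ratios were 0.31 and 0.15 after serotonin and 0.26 and 0.07 after TNF-α, none beyond 2 technical SDs.

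The ratio of pMA against PIP also differed by signal level and by place in the transcript over the whole array. Over all probes measured on both arrays, the median log2 ratio of pMA against PIP was 0.35 for probes of relative signal below 0.1, 0.18 from 0.1 to 0.3, 0.08 from 0.3 to 1, -0.05 from 1 to 3 and -0.10 above 3. In 2172 transcripts with probes at least 300 bases apart, the first probe exceeded the last in this ratio by a median of 0.09 and was the higher in 56.7%. That median was 0.11 where the last probe was the brighter (1730 transcripts) and -0.01 where the first was (442). Opposite signs of first and last probe occurred in 33.3% of these transcripts, and 8.75% differed by 1 or more. In IRF2, STAT5A and STAT6 the dimmer probe, nearer the 5′ end, had the higher ratio, and so had that of IRF3. In IRF1 the dimmer probe, also nearer the 5′ end, had the lower ratio, and the STAT2 probe nearest the 5′ end was the lowest of its 5. The part of signal level and of probe position in the 3 disagreements was not tested.

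**Figure D2:**
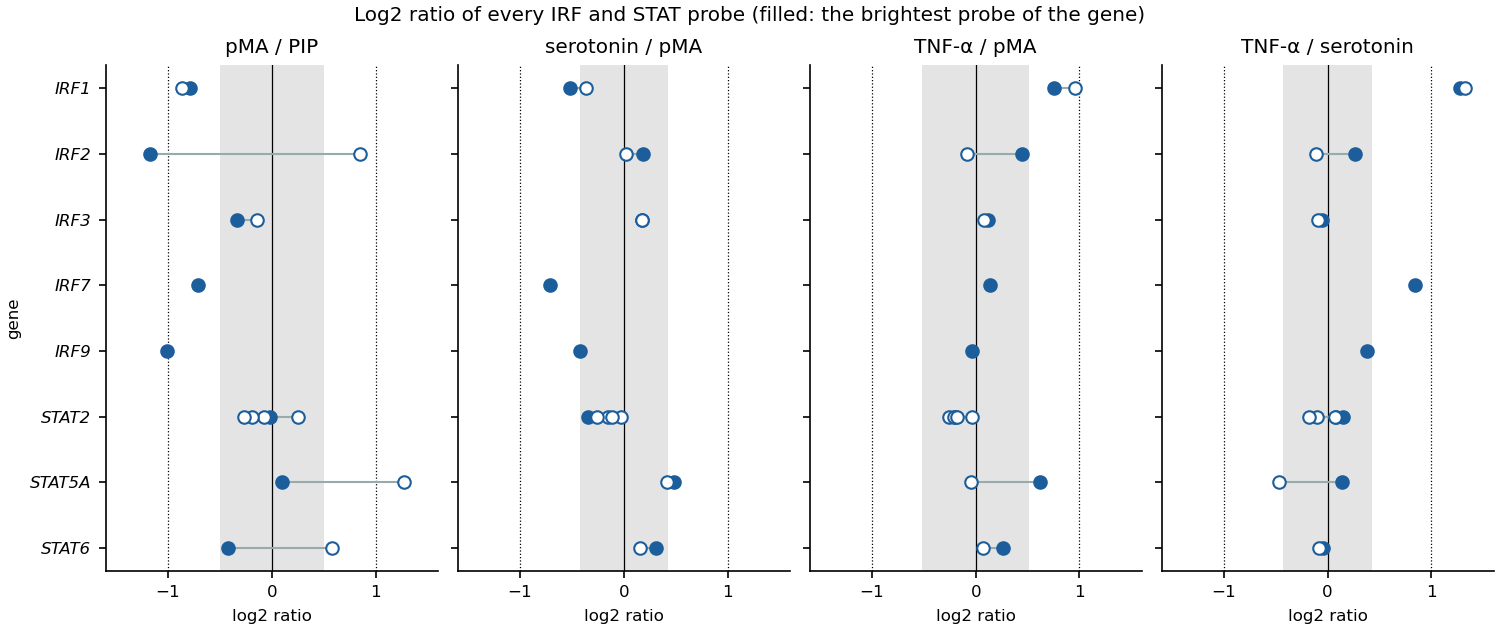
Log2 ratio (horizontal) of every probe of the 8 genes (vertical) in 4 comparisons; filled points are the brightest probe, open points the others, the grey band is 2 technical SDs either side of 0 and dotted lines mark 2-fold. Both IRF1 probes lie beyond the 2-fold line for TNF-α against serotonin, and the probes of IRF2 and STAT6 fall on opposite sides of 0 for pMA against PIP.

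Between PIP and pMA, 7 of the 8 genes had a lower value in pMA and 1 a higher one by the brightest probe. Of the 17 probes 5 were higher and 12 lower. Over all gene names with a ratio 58.1% were above 0, a share that depended on signal. Among probes it was 73.0% at relative signal below 0.1, 46.4% from 1 to 3 and 41.8% above 3. IRF1, IRF3, IRF7, IRF9 and STAT2 had signals in the last 2 ranges. By the brightest probe only IRF2 (by that probe alone) and IRF9 were at least 2-fold lower, and none was 2-fold higher. At least 2-fold differences were present in 13.5% of the 18633 gene names with a ratio, 3.56% of them lower in pMA and 9.94% higher. The median of the members was -0.57, beside 0.12 over all gene names. A ratio below that of IRF9 was found in 3.50% of gene names, below that of IRF1 in 6.03% and below that of IRF7 in 7.52%. The ratios of IRF1, IRF2, IRF7 and IRF9 were beyond 2 technical SDs, as were those of 40.3% of all gene names. With spike-in scaling IRF1 (-0.46) and IRF7 (-0.38) no longer were. The 2-fold standing of IRF9 lay at the limit. It was lost with scaling to the 7 spike-in controls (-0.68), quantile normalization (-0.88), the normexp background correction (-0.97) and the deposited value table (-0.98). That of IRF2 was lost with spike-in scaling (-0.85), normexp (-0.96) and the median of its probes (-0.16). Spike-in scaling moved the median of all gene names from 0.12 to 0.47, so that 91.7% of the 2-fold calls were higher in pMA, against 73.6% with the 75th percentile and 54.7% with quantile normalization. With it 2 members were higher and 6 lower, and the median of the members was -0.24.

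**Figure D3:**
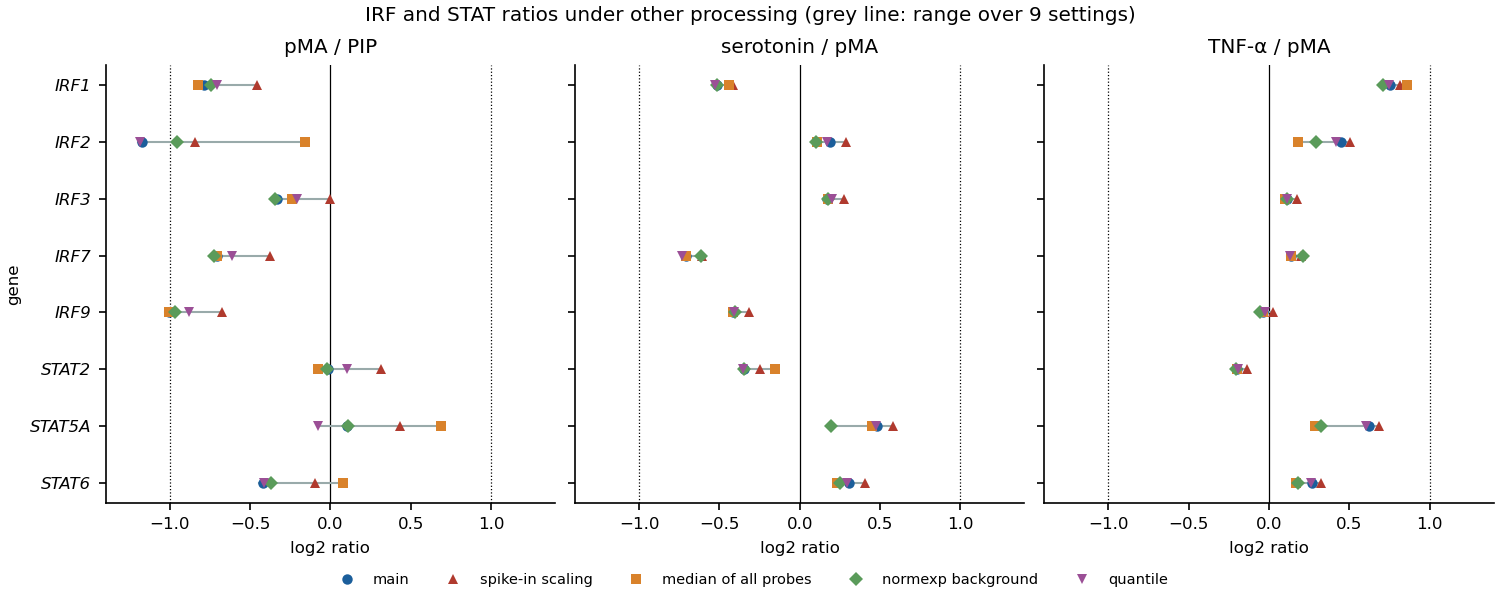
Log2 ratio (horizontal) of each gene (vertical) under the reported processing and 4 of the alternatives as symbols, with a grey line over the range of 9 settings and dotted lines at 2-fold. For pMA against PIP the values of IRF9 run from -1.03 to -0.68 and those of IRF2 from -1.20 to -0.16, while all values of IRF1 after TNF-α lie between 0.71 and 0.86.

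After serotonin, 4 of the 8 genes were higher than in unstimulated pMA and 4 were lower, beside 51.2% of all gene names above 0. None was at least 2-fold apart, beside 6.82% of the 19095 gene names with a ratio (2.08% higher and 4.73% lower). The lower genes were IRF7, IRF1, IRF9 and STAT2, and the higher ones were STAT5A, STAT6, IRF2 and IRF3. By the brightest probe the values of IRF7, IRF1 and STAT5A were beyond 2 technical SDs, as were 32.8% of all gene names. The other probes of IRF1 (-0.362) and STAT5A (0.417) were within that limit of 0.4235. The standing of IRF1 was lost with spike-in scaling (-0.41) and that of STAT5A with normexp (0.19). The median of the members was -0.09 and that of all gene names 0.01. IRF7 had 9.50% of gene names below it and STAT5A 11.8% above it. Leaving out the accession-matched IRF9 turned the median of the members to 0.17.

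By the brightest probe, 6 genes were higher after TNF-α than in pMA and 2, STAT2 and IRF9, were lower. Over all gene names 50.7% were above 0. The other probes of IRF2 (-0.09) and STAT5A (-0.05) were below 0. No gene was at least 2-fold apart, beside 3.56% of the 19782 gene names (2.21% higher and 1.34% lower). IRF1 (0.76) and STAT5A (0.62, by 1 of its 2 probes) were beyond 2 technical SDs, as were 15.3% of all gene names. With normexp STAT5A was at 0.32 and no longer so. IRF1 had 3.88% of gene names above it. The median of the members was 0.20, beside 0.01 over all gene names. IRF9 crossed 0 under spike-in scaling, to 0.02. The pMA array is shared by all 3 of these comparisons, so that its own error enters each of them.

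Set directly against serotonin, TNF-α had 6 genes higher and 2, IRF3 and STAT6, lower by the brightest probe. Of all gene names 53.7% were above 0. IRF1 was the only member at least 2-fold apart, beside 6.9% of the 21862 gene names with a ratio (5.07% higher and 1.83% lower). IRF1 (1.27) and IRF7 (0.84) were beyond 2 technical SDs, as were 33.8% of all gene names. The remaining 6 genes lay between -0.06 and 0.38 by the brightest probe. The other STAT5A probe was at -0.46, beyond 2 technical SDs, and the other IRF2 probe at -0.11. Of the 17 probes 9 were higher and 8 lower.

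**Figure D4:**
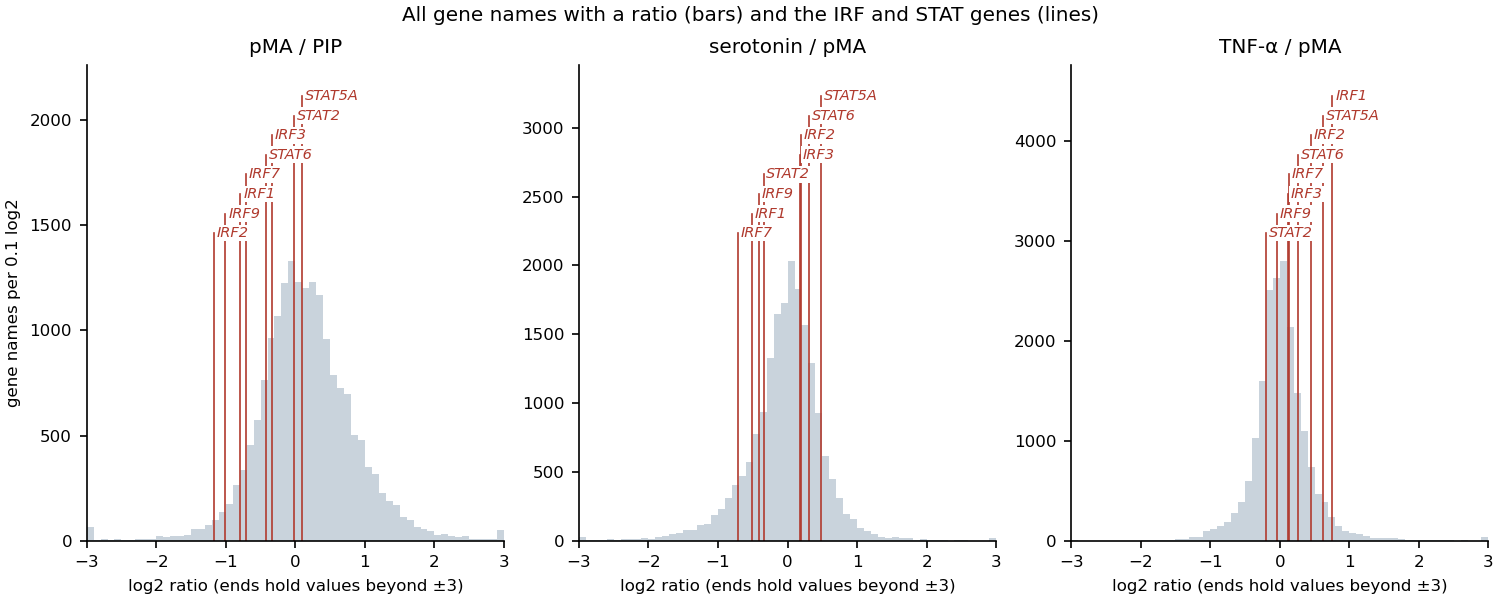
Number of gene names (vertical, bars) by log2 ratio (horizontal, in steps of 0.1) for pMA against PIP, serotonin against pMA and TNF-α against pMA, with a red line at each of the 8 IRF and STAT genes. Most members lie left of the peak for pMA against PIP, on both sides of it after serotonin, and IRF1 lies in the right tail after TNF-α.

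The member with the widest range over the 4 arrays was IRF9, at 1.42 on the log2 scale, followed by IRF7 at 1.42, IRF1 at 1.30 and IRF2 at 1.17. STAT5A had 0.73, STAT6 0.42, STAT2 0.36 and IRF3 0.33. Among 4586 gene symbols above background on every array, those with the 3 ratios nearest to IRF9 were ALG14 (distance 0.04 on the log2 scale), PRKCA (0.15) and WWP1 (0.17). Their ratios for pMA against PIP lay between -1.13 and -0.99, and after serotonin between -0.58 and -0.35.

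The genes around these factors were followed in 11 lists. Their counts stand beside shares over all gene names of 58.1% above 0 in pMA against PIP, 51.2% after serotonin and 50.7% after TNF-α. In the same order, 9.94%, 2.08% and 2.21% were at least 2-fold higher, and 3.56%, 4.73% and 1.34% at least 2-fold lower. Upstream, the interferon genes themselves were near background. Of 4 ligands on the array IFNB1 was above background in PIP and not in pMA, at least 2.10-fold lower in the latter, no ligand had a ratio after serotonin, and none was at least 2-fold apart after TNF-α. Of the receptors that signal through Janus kinases, 10 of 14 were higher in pMA than in PIP, EPOR, the erythropoietin receptor, by the most (1.05, the only 2-fold one), with a list median of 0.42. With spike-in scaling 12 of 14 were higher, 4 of them by 2-fold, with a median of 0.75, and with normexp or the median of all probes none was 2-fold higher. After serotonin 9 of 14 were higher and 1 was 2-fold lower, GHR, the growth hormone receptor that acts through STAT5 (-1.35). Its 3 probes with a ratio ran from -1.35 to -0.83. The 2-fold call was lost with normexp and with the median of all probes. After TNF-α 11 of 15 were higher and none by 2-fold, the largest being IFNGR2, a chain of the interferon gamma receptor (0.89). By the brightest probe no Janus kinase was 2-fold apart in any comparison. The other JAK3 probe was at least 2-fold higher in pMA than in PIP. By the brightest probe, the largest ratios measured on both arrays were -0.77 for JAK2 in pMA against PIP and -0.42 for JAK3 after serotonin. After TNF-α the largest was 0.45 for JAK3, in 1 of 2 probes.

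Among sensors, adaptors and kinases that feed IRF3 and IRF7, 4 of 15 were at least 2-fold lower in pMA than in PIP and 1, TLR4, which was not above background in PIP, was higher. The 4 were DDX58 (-1.98) and IFIH1 (-1.01), the RNA sensors RIG-I and MDA5, DHX58 (-1.56), their relative LGP2, and MB21D1 (-1.73), the DNA sensor cGAS. The median of the 15 was -0.01. After serotonin DDX58 alone passed 2-fold, at -1.88, and 2 genes did with quantile normalization or scaling to the median. After TNF-α none of 16 did, DHX58 having the largest ratio (0.69). Of 10 inhibitors of JAK-STAT signalling, SOCS2 (-1.78) and USP18 (-1.24), which blocks the type I interferon receptor, were 2-fold lower in pMA than in PIP, 1 gene of them with spike-in scaling or the median of all probes. After serotonin SOCS3 (1.72) and SOCS5 (1.30) were 2-fold higher and USP18 2-fold lower (-1.77). After TNF-α none of 10 passed 2-fold, and the largest, SOCS3 at 0.57, had that direction in 1 of 2 probes. Under spike-in scaling the median of the inhibitors for pMA against PIP crossed from -0.29 to 0.04 and that of the sensors moved to 0.32.

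For IRF8, whose own level is not analysed here, 2 partners of blood cells were on the array. SPI1 was above background on neither the PIP nor the pMA array, and ID2 had ratios of -0.33, -0.61 and 0.15 in the 3 comparisons.

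Downstream, the antiviral genes switched on by ISGF3 were lower in pMA than in PIP in 18 of 19 cases, 12 of them at least 2-fold, with a median of -1.24, beside 3.56% of all gene names at least 2-fold lower. With spike-in scaling 7 were at least 2-fold lower and the median was -0.91. The lowest were PARP14 (-2.51), RSAD2 (-2.29), HERC5 (-2.20) and OAS1 (-2.05). RSAD2 and OAS1 are enzymes that block viral growth and HERC5 attaches ISG15 to other proteins. After serotonin all 19 were lower than in pMA, 10 of them at least 2-fold, with a median of -1.13, although under spike-in scaling 1 turned higher. Those furthest down were RSAD2 (-2.36), ISG15 (-1.88), the ubiquitin-like modifier, OAS1 (-1.86) and USP18 (-1.77). After TNF-α 15 of 20 were higher, PARP14 (1.26) alone by 2-fold and none with normexp, and the median was 0.24. Against serotonin, the TNF-α array had 19 of the 20 higher, 14 at least 2-fold. In the same comparisons IRF9 had ratios of -1.01, -0.42 and -0.04, STAT2 of -0.02, -0.35 and -0.20 and IRF7, itself a target of ISGF3, of -0.71, -0.71 and 0.14.

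Targets of IRF1 were lower in pMA than in PIP in 11 of 13 cases, 3 of them at least 2-fold, namely PSMB8 (-1.94) and PSMB9 (-1.43), subunits of the immunoproteasome, and the chemokine CXCL10 (-1.15). After serotonin 9 of 10 were lower, with a median of -0.24. GBP1, a guanylate-binding protein (-2.12), and CXCL10 (-1.14) were lower by 2-fold, of which 1 with normexp. With spike-in scaling 7 of 10 were lower (median -0.13), and with scaling to the median all 10 were. After TNF-α 13 of 14 were higher, with a median of 0.77, and 5 were at least 2-fold higher. CXCL10 (1.95), PSMB9 (1.26) and PSMB8 (1.04) were measured in both cultures. The adhesion molecule VCAM1 and the protease CASP1 were not above background in pMA and at least 3.37-fold and 2.92-fold higher after TNF-α. With normexp, or with probes above background on all 4 arrays, 3 of the targets were 2-fold higher. IRF1 itself stood at -0.79, -0.51 and 0.76 in the 3 comparisons.

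Of 6 STAT5 targets, BCL2L1 (1.97), the survival factor, OSM (1.97), a cytokine, and IGF1 (1.12) were at least 2-fold higher in pMA than in PIP, and SOCS2 was 2-fold lower. With spike-in scaling 5 were 2-fold higher and with normexp 1. After serotonin IGF1, which growth hormone induces through STAT5, was 2-fold lower (-1.98). GHR was lower and both STAT5A probes were higher (0.48 and 0.42), and a link between these values was not tested. After TNF-α 5 of 6 were lower and none by 2-fold, IGF1 having -0.82. Of the STAT6 targets CCL17 (1.22) and PPARG (1.07), the master regulator of fat cells, were 2-fold higher in pMA than in PIP, 1 gene with normexp or quantile normalization and 3 with spike-in scaling. None of 5 was 2-fold apart after serotonin, the largest ratio being 0.28 for IL4R. After TNF-α 1 of 6 was, CHI3L1, a secreted chitinase-like protein that many inflammatory signals induce, at 5.24 on the log2 scale.

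**Figure D5:**
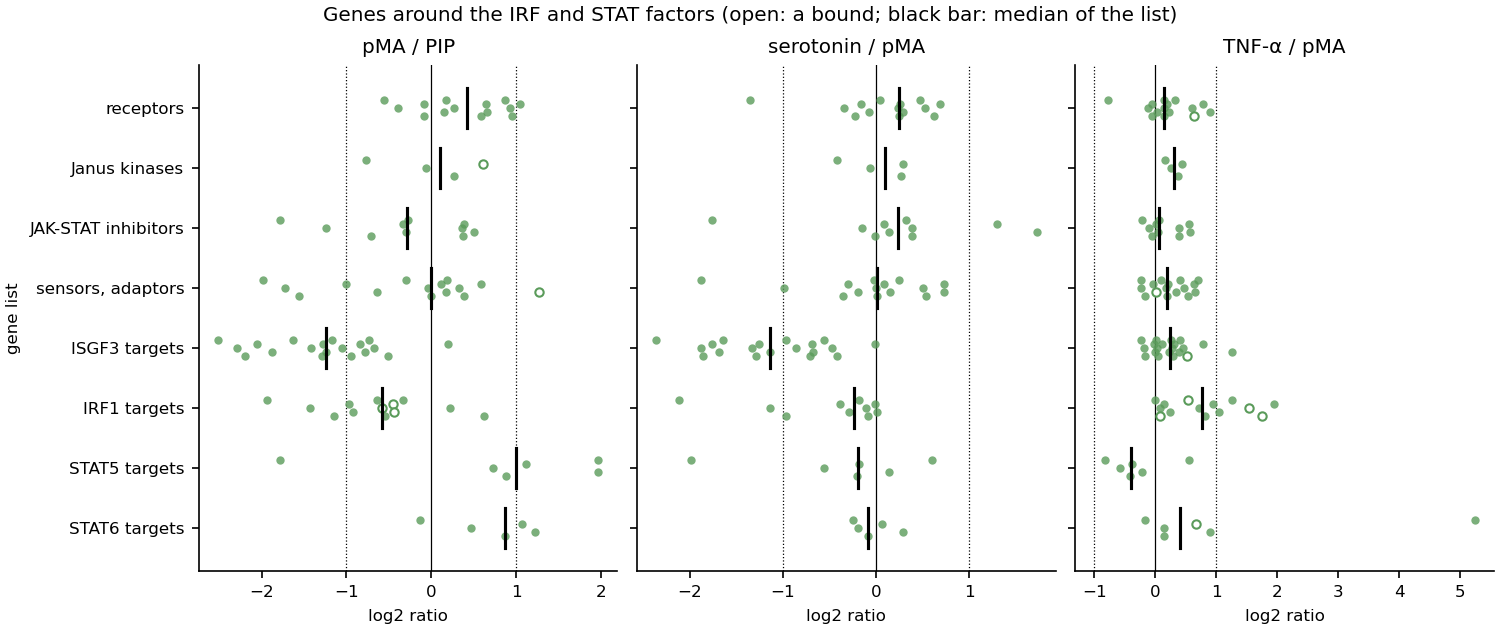
Log2 ratio (horizontal) of each gene of 8 lists (vertical) for pMA against PIP, serotonin against pMA and TNF-α against pMA; open points are bounds, black bars list medians and dotted lines 2-fold. Left of 0 lie 18 of 19 ISGF3 targets in the first panel (median -1.24) and 19 of 19 in the second (median -1.13), and 13 of 14 IRF1 targets lie right of 0 in the third (median 0.77).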

How the data were processed

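Levels of RNA were measured on 1-color Cy3 Agilent porcine 4 x 44K arrays, 1 for each of 4 groups. The deposited scanner files hold intensity per spot, which the authors extracted with Agilent Feature Extraction 10.7.3.1. The deposited value table holds a linear ratio, which matched the same intensity divided by 1 constant per array. The methods also name other platforms and a t-test, which 1 array per group does not allow. Their 2-fold limit was kept.

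Here, log2 of the processed intensity minus the 75th percentile of each array was used, without outlier-flagged spots, averaging the spots of a probe (43603 probes). The brightest probe represents a gene. For a probe above background on 1 of 2 arrays the ratio is a bound, with the faintest detected signal of the dim array as its floor. RefSeq accessions updated the names of 659 probes. Python 3.11.15, pandas 2.3.3 and limma 3.58.1 (normexp, offset 50) were used, and the scripts were tested on simulated data. Alternatives were other scalings, background corrections, filters, probe summaries, name matching and fold limits. From the pathway lists, genes at least 2-fold apart are named, at most the 4 largest measured on both arrays in each list and comparison, otherwise the largest. The bounds named in the text are additions. Some listed genes are not reported here. The members and lists were chosen with earlier results of these data known. The number of arrays limits the precision. Promoter motifs and protein sequences were not analysed here.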

Additional observations from a re-analysis of the deposited data

How the results depend on the processing

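All member probes were above background on all 4 arrays, so changing the filter on dim probes could not move a member ratio. Nor could the median of all probes move IRF7 and IRF9, which had 1 probe each. With these fixed values included, 192 ratios of single genes were recalculated. Of them 177 moved by less than 1 technical SD and 15 by more, and 6 of the 192 turned sign. For pMA against PIP these were STAT6, at 0.076 as the median of its probes, STAT2, at 0.31 with spike-in scaling, 0.10 with quantile normalization and 0.0058 with the deposited value table, and STAT5A, at -0.08 with quantile normalization. The last was IRF9 after TNF-α, at 0.02 with spike-in scaling. The reported value was within 1 technical SD of 0 in 5 of the 6. The median of the members for pMA against PIP moved to -0.24 with spike-in scaling and -0.20 with the median of all probes, and that for serotonin to 0.17 without IRF9, an alternative chosen after seeing the data. The number of gene names at least 2-fold apart was 2515 for pMA against PIP, 1302 after serotonin and 704 after TNF-α. For pMA against PIP it became 4054 with spike-in scaling. With normexp background correction the 3 counts were 824, 578 and 267, and with no filter on dim probes 7130, 3902 and 3235. Requiring all 4 arrays above background left 453 after TNF-α. A 1.5-fold limit gave 6344, 4005 and 2402, and a 4-fold limit 342, 187 and 100. The shares higher among 2-fold calls were 62.2% after TNF-α (49.3% with quantile normalization and 72.3% with normexp) and 30.6% after serotonin (43.7% with spike-in scaling). The cause of these shifts was not tested. No array could be left out and no paired analysis was possible because each group had 1 array. Single arrays of pooled RNA leave the spread between cultures unknown.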
